A study of Mus musculus with 9 samples.

Results

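The endothelial molecules that catch leukocytes, and the sialomucins that stand beside them on the vessel surface, were followed in the transcriptomes of sorted bone marrow (BM) endothelial cells (ECs). The set has 9 members, taken by gene name from the 46078 genes of the deposited read count table: the selectins Sele and Selp, the immunoglobulin superfamily members Icam1, Icam2, Vcam1 and Madcam1, and the CD34 family and related sialomucins Cd34, Podxl and Emcn. Every cell came from BM of normal wild type mice of the B6 strain, and was negative for the leukocyte marker CD45 and the erythroid marker Ter119 and positive for CD31. The sort then divided the cells by surface Sca-1, the protein of the gene Ly6a. The fractions compared were Sca-1+ (4 libraries, numbered 7, 13, 15 and 19) and Sca-1- (5 libraries, numbered 8, 10, 14, 16 and 22). No treatment is given, the ages are not given in the sources used here, and both fractions share the wild type background. The titles of libraries 13, 14 and 22 carry the tag CD452 and that of library 10 its digits alone, those of 8, 15, 16 and 19 carry wt, and that of 7 carries neither. The labels do not explain the tag. Whether each library is a separate mouse is not stated. The titles of libraries 15 and 16 carry the same number before the tag wt, which the labels do not explain. The p-values therefore measure the spread between these libraries.

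Leukocytes leave and enter blood in steps. Selectins on the EC bind sialylated, fucosylated glycans and make the leukocyte roll, then the immunoglobulin superfamily members ICAM-1, ICAM-2, VCAM-1 and MAdCAM-1 bind leukocyte integrins and hold it firmly. CD34, podocalyxin and endomucin are heavily glycosylated, negatively charged sialomucins, which can repel cells or, when decorated with the right glycans, serve as ligands of L-selectin. In BM the vessel wall is the door through which stem cells home and mature blood cells leave, and E-selectin and VCAM-1 are known there as constant, not only inflammatory, homing molecules.

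Total counts were 21581653 to 25959818 per library, and 3 counts in a library, taken as the floor of detection, corresponded to 0.0996 to 0.209 CPM, the counts of a gene brought to a common library size after TMM scaling. The sort was checked first. Ly6a was at 1133 ± 187 CPM (SD, n = 4) in Sca-1+ and 0.678 ± 0.524 CPM (SD, n = 5) in Sca-1- libraries. Pecam1, which encodes CD31, was at 1399 ± 261 and 836 ± 613 CPM and was not called (adjusted p = 0.247). The labelled EC identity was less clear in Sca-1-. The summed level of 25 general endothelial genes was 10600 to 12434 CPM in Sca-1+ and 360 to 798 CPM in Sca-1- libraries, and all 25 were higher in Sca-1+. The 14 megakaryocyte and platelet genes had the opposite pattern, with a sum of 36.7 to 83.2 CPM in Sca-1+ and 25914 to 110265 CPM in Sca-1- libraries, where they took 3.01% to 6.40% of all counts. Of the 8 sinusoidal endothelial genes, 7 were higher and 1 lower in Sca-1+. Stab2, a scavenger receptor of sinusoidal ECs, was at 278 ± 120 against 12.2 ± 16.3 CPM. Lyve1, the lower gene, was at 1.26 ± 1.74 CPM in Sca-1+ against 96.4 ± 42.2 CPM in Sca-1-. In these bulk libraries fewer ECs in a fraction and less of a transcript per EC cannot be told apart. The running number that opens the sample titles also splits without overlap between the fractions, and its part cannot be told apart from that of Sca-1.

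The regions before the gene starts are shown for 4 members, the 2 selectins because their profiles over the libraries differed most of all pairs of members, and Icam1 and Madcam1 because they were the most and the least abundant members per length in Sca-1+ libraries. Each run is the 250 bases before the annotated start from RefSeq on GRCm38.p6, plus strand, 5′ to 3′. They lie at chr1:164047984-164048233 (Sele), chr1:164115014-164115263 (Selp), chr9:21015690-21015939 (Icam1) and chr10:79664309-79664558 (Madcam1). Capitals mark matches on either strand to GGG and CC with any 5 bases between them, a loose form of the site of NF-kB factors, and to TATAAA, the TATA box.
Sele: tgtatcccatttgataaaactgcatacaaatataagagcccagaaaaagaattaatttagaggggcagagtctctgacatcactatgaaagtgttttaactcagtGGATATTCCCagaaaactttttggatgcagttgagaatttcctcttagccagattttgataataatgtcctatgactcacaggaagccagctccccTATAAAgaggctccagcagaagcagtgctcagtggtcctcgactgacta
Selp: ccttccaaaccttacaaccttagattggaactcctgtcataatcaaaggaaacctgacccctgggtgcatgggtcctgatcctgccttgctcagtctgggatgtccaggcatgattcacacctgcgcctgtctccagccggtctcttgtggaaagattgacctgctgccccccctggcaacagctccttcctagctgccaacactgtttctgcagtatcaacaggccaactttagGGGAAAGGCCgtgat
Icam1: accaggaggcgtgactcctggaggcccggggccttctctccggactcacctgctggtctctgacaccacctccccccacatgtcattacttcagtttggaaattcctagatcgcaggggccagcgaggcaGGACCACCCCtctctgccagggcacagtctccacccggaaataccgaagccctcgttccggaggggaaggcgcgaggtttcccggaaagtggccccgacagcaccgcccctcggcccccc
Madcam1: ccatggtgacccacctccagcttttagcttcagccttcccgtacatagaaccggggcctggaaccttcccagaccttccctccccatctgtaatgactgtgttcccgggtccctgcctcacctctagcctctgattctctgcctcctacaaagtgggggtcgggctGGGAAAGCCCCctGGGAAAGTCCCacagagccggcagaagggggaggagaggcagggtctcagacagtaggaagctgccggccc
The promoter table held 6 of the 9 members, these 4 with Cd34 and Emcn. The GGG and CC form was found in 5 of the 6, and also in 45.8% of all 32851 promoter windows of the same length, so that the match itself was common. Sele and Selp each held 1 match, and Madcam1 held 5 overlapping matches in 2 clusters. TATAAA was found in 1 of the 6, Sele, 49 bases before its start, against 12.4% of all windows. The core of ETS factor sites, GGAA, was in 6 of 6 and in 93.4% of all windows, with 3 matches in Sele, 6 in Selp, 7 in Icam1, 8 in Madcam1, 5 in Cd34 and 4 in Emcn. A match is a description of letters and not a measured binding site.

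Vcam1 is a known target of miR-126, an endothelial microRNA that was not measured in these polyA libraries, and the sequences of both are shown because the match between them sets Vcam1 apart from the other members. The mature mmu-miR-126a-3p (chr2:26591402-26591423, plus strand, GRCm38.p6, RefSeq) has its seed, bases 2 to 8, in capitals. The Vcam1 run is 29 bases of the 3′ UTR of its longest coding transcript (chr3:116110234-116110262, minus strand, GRCm38, GENCODE M21), in transcript direction, with the letters complementary to that seed in capitals.
mmu-miR-126a-3p: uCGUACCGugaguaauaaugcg
Vcam1: atggtactgtaCGGTACGgggacctgttt
The 7 letters stood once in the Vcam1 3′ UTR, at positions 626 to 632 of 928 bases. They were not in the 3′ UTR of the longest coding transcript of the other 8 members. Of 20952 genes with a 3′ UTR, 35 (0.167%) held them.

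Of the 9 members, all of which passed the filter on low counts, 8 were higher in Sca-1+ than in Sca-1- libraries, 0 were lower, and Selp was not called. Madcam1 passed that filter only through its counts in the Sca-1+ libraries, where it was higher. Its place among the 8 is therefore not independent of the filter. Over all 15937 genes tested 23.3% were called higher and 21.4% lower. In 8 of 9 members every Sca-1+ library was above every Sca-1- library, against 24.8% of all genes tested. The median log2 fold change of the members was 4.55, beside 0.074 over all genes and 4.497 over the 25 general endothelial genes. With the tag of the titles as a term in the fit, 8 members were again higher in Sca-1+. In the 4 libraries tagged wt (15 and 19 against 8 and 16) 7 were higher and Madcam1 was not called (log2 fold change 2.89, adjusted p = 0.289). There 1449 of all 16288 genes tested were called higher. The CD452 tag holds only 1 Sca-1+ library and was not fitted alone.

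**Figure D1:**
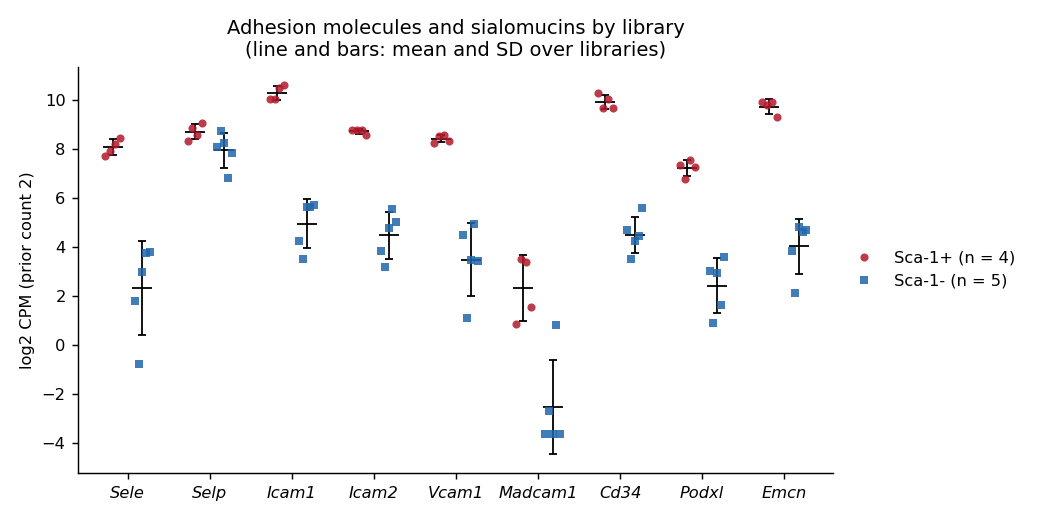
Level of each member in every library as log2 CPM with a prior count of 2 (vertical axis), Sca-1+ in red circles (n = 4) and Sca-1- in blue squares (n = 5), with the mean and SD over libraries in black. The fractions are far apart for Sele, Icam1, Icam2, Vcam1, Cd34, Podxl and Emcn, overlap for Selp, and nearly touch for Madcam1, whose highest Sca-1- library is number 16.

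E-selectin, which makes leukocytes roll slowly and is made chiefly by ECs, was at 208, 239, 291 and 345 CPM in Sca-1+ libraries 7, 13, 15 and 19. In Sca-1- libraries 8, 10, 14, 16 and 22 Sele was at 3.36, 0.489, 7.68, 13.3 and 13.7 CPM. Every Sca-1+ library was above every Sca-1- library, and library 10 was far under the other Sca-1- libraries with 7 counts. The log2 fold change was 5.12 ± 0.75 (SE, adjusted p = 4.2e-04, edgeR quasi-likelihood test, Benjamini-Hochberg).

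P-selectin, which starts rolling and is stored ready-made in ECs and also in platelets and their parent megakaryocytes, behaved differently. Selp was at 320, 460, 379 and 523 CPM in Sca-1+ libraries 7, 13, 15 and 19. The Sca-1- libraries 8, 10, 14, 16 and 22 held 269, 422, 300, 113 and 224 CPM of Selp. The groups overlapped, since library 10 of Sca-1- was above 2 of the Sca-1+ libraries. The log2 fold change was 0.66 ± 0.34 (SE), with a 95% interval of -0.10 to 1.43 and an adjusted p of 0.141, which does not show equal levels. Scaled by library size alone, it was 1.16 with an adjusted p of 0.00574.

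The ratio of both selectins within a library does not depend on how libraries are scaled. Sca-1+ libraries held 1.54, 1.93, 1.30 and 1.51 Selp counts per Sele count, and Sca-1- libraries 8, 10, 14, 16 and 22 held 79.8, 863, 39.1, 8.45 and 16.3. The ranges did not overlap, and the mean log2 ratio differed by -5.06, Sca-1+ minus Sca-1- (two-sided exact permutation test, p = 0.0159, which is the least 4 against 5 libraries allow, and 0.0317 after Benjamini-Hochberg adjustment over 6 ratios of members). The difference was -4.04 without library 10, whose ratio rests on 7 Sele counts, and -5.71 without library 16. These ratios were chosen after their values were seen. The Selp to Icam2 ratio was 0.734 to 1.40 in Sca-1+ and 2.44 to 47.5 in Sca-1- libraries, with the same p values by the exact permutation test.

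Genes of megakaryocytes, a further source of P-selectin, were abundant in the Sca-1- libraries. The summed megakaryocyte and platelet genes were at 89145, 110265, 53491, 25914 and 36857 CPM in Sca-1- libraries 8, 10, 14, 16 and 22. The highest library for both was number 10 and the lowest number 16. All 14 of these genes were lower in Sca-1+, where Itga2b was at 10.8 and Pf4 at 14.3 CPM, against 12391 and 6632 CPM. Their part in the Selp level of the Sca-1- libraries was not tested. In the Sca-1+ libraries, where those genes summed to 83.2 CPM at most, Selp was at 320 CPM or more.

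**Figure D2:**
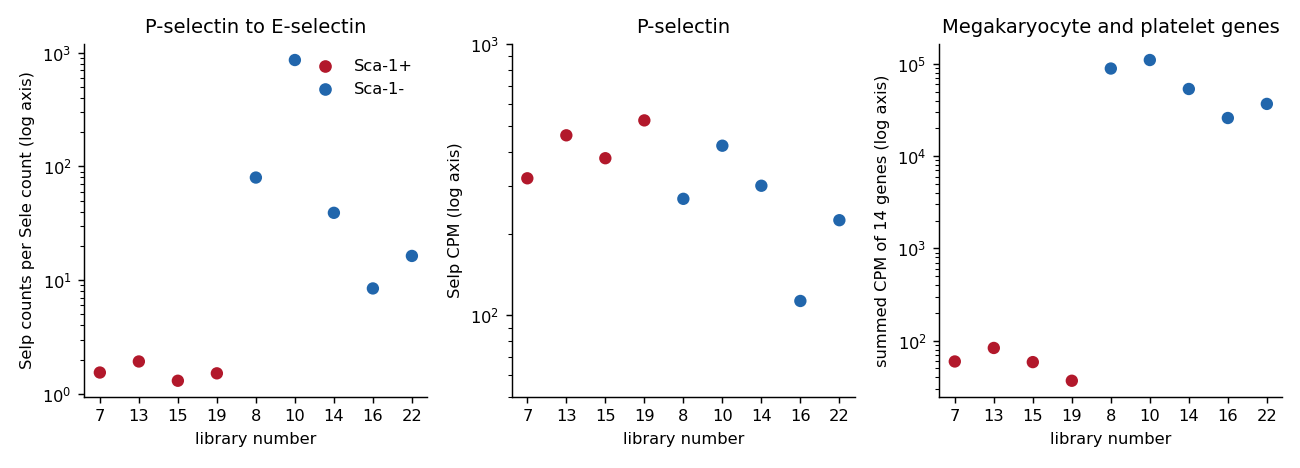
Selp counts per Sele count (left), Selp CPM (middle) and the summed CPM of 14 megakaryocyte and platelet genes (right), each on a log axis, for every library by its number, Sca-1+ in red and Sca-1- in blue. The ratio is 1.30 to 1.93 in Sca-1+ and 8.45 to 863 in Sca-1- libraries, while Selp itself overlaps and the megakaryocyte genes are higher in every Sca-1- library.

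ICAM-1, the ligand of the integrins LFA-1 and Mac-1, was at 1050, 1029, 1413 and 1544 CPM in Sca-1+ libraries 7, 13, 15 and 19. Icam1 in Sca-1- libraries 8, 10, 14, 16 and 22 was at 18.9, 11.2, 49.1, 49.0 and 51.2 CPM. The fractions did not overlap, and libraries 8 and 10 lay under the other Sca-1- libraries. The log2 fold change was 5.13 ± 0.50 (SE, adjusted p = 4.94e-05).

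ICAM-2, a constitutive LFA-1 ligand at EC junctions that is also known on platelets, was at 436, 436, 431 and 375 CPM in Sca-1+ libraries 7, 13, 15 and 19. Its Sca-1- values were 13.997, 8.87, 27.1, 46.3 and 32.0 CPM in libraries 8, 10, 14, 16 and 22. Icam2 had the narrowest spread of the members in Sca-1+, with a coefficient of variation of 7.12%, and library 19 was the low one. The log2 fold change was 4.03 ± 0.45 (SE, adjusted p = 9.87e-05), and the Icam1 to Icam2 count ratio was 2.36 to 4.12 in Sca-1+ against 1.06 to 1.81 in Sca-1- libraries (exact permutation test, p = 0.0159, adjusted over 6 ratios 0.0317).

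VCAM-1, the ligand of the integrin VLA-4 that holds stem cells and B cell progenitors in BM, was at 301, 361, 374 and 319 CPM in Sca-1+ libraries 7, 13, 15 and 19. In Sca-1- libraries 8, 10, 14, 16 and 22 Vcam1 was at 21.9, 2.02, 10.99, 30.6 and 10.6 CPM. The Sca-1- libraries spread 15.1-fold, from number 10 to number 16, and the Sca-1+ libraries 1.24-fold. The log2 fold change was 4.47 ± 0.62 (SE, adjusted p = 3.13e-04). The study that reported these data gave lower Vcam1 in normal BM ECs high in Sca-1 than in those low in Sca-1. Its main text does not name the measure used for that comparison, while the values here are read counts of Sca-1+ and Sca-1- libraries. The direction here was the opposite, and the reason for the difference was not tested. Scaled to the general endothelial genes, Vcam1 was not called (log2 fold change -0.007, edgeR adjusted p = 0.989). Macrophages and stromal cells of BM also make VCAM-1. Of 8 macrophage genes, 1 was higher and 1 lower in Sca-1+, with sums of 33.0 to 71.8 CPM in Sca-1+ and 11.7 to 49.4 CPM in Sca-1-. Adgre1 (F4/80), at 0.528 and 1.87 CPM, was not called (edgeR adjusted p = 0.124). Of 8 marrow stromal genes, 5 were higher and 2 lower in Sca-1+, while their sums were lower there, at 770 to 2634 against 3337 to 41026 CPM. Lepr, 1 of the 5 higher, was at 103 and 26.03 CPM (edgeR adjusted p = 0.00779). Their part in the Vcam1 level was not tested.

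MAdCAM-1, the address molecule for gut homing lymphocytes that carry the integrin of Itga4 and Itgb7, was the least abundant member and in Sca-1- libraries mostly at the floor. It had 50, 332, 297 and 72 counts in Sca-1+ libraries 7, 13, 15 and 19, which are 1.70, 11.3, 10.3 and 2.79 CPM. In Sca-1- libraries 8, 10, 14, 16 and 22 it had 0, 1, 0, 50 and 0 counts, so that 4 of the 5 were at or under the floor and library 16 was at 1.66 CPM. The fractions were separated only by 1.70 against 1.66 CPM. The log2 fold change was 4.13 ± 1.43 (SE, adjusted p = 0.0371), and the call did not hold without library 13 (adjusted p = 0.0879), 15 (0.0891), 8 (0.0622), 10 (0.0742), 14 (0.0519) or 22 (0.0568), each left out alone. Without library 16 it was 8.46 with an adjusted p of 4.34e-04.

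CD34, the sialomucin that marks blood progenitors and small-vessel ECs and that can carry L-selectin ligands, was at 1232, 818, 1045 and 811 CPM in Sca-1+ libraries 7, 13, 15 and 19. Its Sca-1- values were 25.2, 11.1, 18.6, 21.5 and 47.3 CPM in libraries 8, 10, 14, 16 and 22. The fractions were far apart, with a log2 fold change of 5.30 ± 0.43 (SE, adjusted p = 2.42e-05), the lowest adjusted p among the members. Of 7 stem and progenitor genes tested, 2 were higher and 2 lower in Sca-1+. Procr (93.5 against 4.44 CPM) and Mecom (84.2 against 2.89 CPM) were higher, as Cd34 was, and Slamf1 (0.0182 against 587 CPM) and Meis1 (0.729 against 89.2 CPM) were lower. The summed level of the list was 212 to 296 CPM in Sca-1+ and 327 to 1512 CPM in Sca-1- libraries, where Slamf1 had the highest mean of the list. Their part in the Cd34 level was not tested.

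Podocalyxin, a CD34 relative that keeps the lumen open by its charge and is also found on progenitors and platelets, was at 161, 110, 185 and 150 CPM in Sca-1+ libraries 7, 13, 15 and 19. In Sca-1- libraries 8, 10, 14, 16 and 22 Podxl was at 8.05, 1.75, 7.59, 2.96 and 11.8 CPM. The fractions did not overlap, and the log2 fold change was 4.55 ± 0.52 (SE, adjusted p = 1.13e-04).

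Endomucin, a sialomucin of capillary and venous endothelium and a common stain for BM sinusoids, was at 969, 875, 955 and 618 CPM in Sca-1+ libraries 7, 13, 15 and 19. Emcn in Sca-1- libraries 8, 10, 14, 16 and 22 was at 14.1, 4.26, 27.9, 24.2 and 25.4 CPM. It had the largest log2 fold change of the members, 5.48 ± 0.52 (SE, adjusted p = 4.63e-05), and the lowest Sca-1+ library, number 19, was still over every Sca-1- library. By staining, the study that reported these data described arterioles high in Sca-1 as Emcn negative and sinusoids low in Sca-1 as Emcn positive. That is protein on vessels and not RNA of sorted cells, and the difference was not tested. Proportions among the 3 sialomucins overlapped between the fractions. The ratio of Emcn to Cd34 counts was 0.763 to 1.07 in Sca-1+ and 0.384 to 1.502 in Sca-1- libraries (exact permutation test, p = 0.54), and that of Podxl to Cd34 was 0.131 to 0.186 and 0.137 to 0.409 (exact permutation test, p = 0.159). The Vcam1 to Icam1 ratio also overlapped, at 0.206 to 0.350 and 0.180 to 1.16 (exact permutation test, p = 0.571). With 4 and 5 libraries these tests do not show that the proportions were equal.

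Library 10 was the lowest Sca-1- library for 7 of the 9 members, and for Selp it was the highest. The highest Sca-1- library was number 22 for 4 members, 16 for 3 and 10 and 14 for 1 each. Library 10 also had the lowest summed level of general endothelial genes, 360 CPM, and the highest of megakaryocyte genes. Without libraries 19, 10 and 22 together, which an earlier analysis of these data had found to stand apart, 7 members were higher in Sca-1+ and Madcam1 was not (log2 fold change 3.74, adjusted p = 0.138). In that fit 2768 of all 15924 genes tested were called higher.

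Levels between genes were compared per length, as reads per kilobase of the longest coding transcript with the CPM scaling above (RPKM). In Sca-1+ libraries the order of mean RPKM was Icam1 497 ± 102, Cd34 382 ± 79.2, Emcn 330 ± 62.9, Icam2 327 ± 23.3, Selp 122 ± 25.97, Vcam1 97.6 ± 9.88, Sele 93.0 ± 20.7, Podxl 28.2 ± 5.84 and Madcam1 4.54 ± 3.46 (SD, n = 4). The ranges of neighbours overlapped except between Icam2 and Selp, Sele and Podxl, and Podxl and Madcam1, which makes 4 steps of abundance. Icam1 was at the 99.4th percentile of all genes tested and Podxl at the 83.5th. In Sca-1- libraries Selp came first with 77.2 ± 32.7 RPKM (SD, n = 5), then Icam2 with 20.01 ± 11.6 and Icam1 with 14.2 ± 7.58, and every pair of neighbours in the order overlapped. Selp made up 6.55% (4.91% to 8.22%) of the summed member RPKM in Sca-1+ and 55.9% (27.1% to 86.9%) in Sca-1- libraries. The order depends on the length used. Over the union of all exons, which is much longer for Vcam1 (8870 against 3469 bases), Cd34 (7290 against 2554) and Emcn (5409 against 2588), mean Vcam1 in Sca-1+ was 38.2 RPKM.

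**Figure D3:**
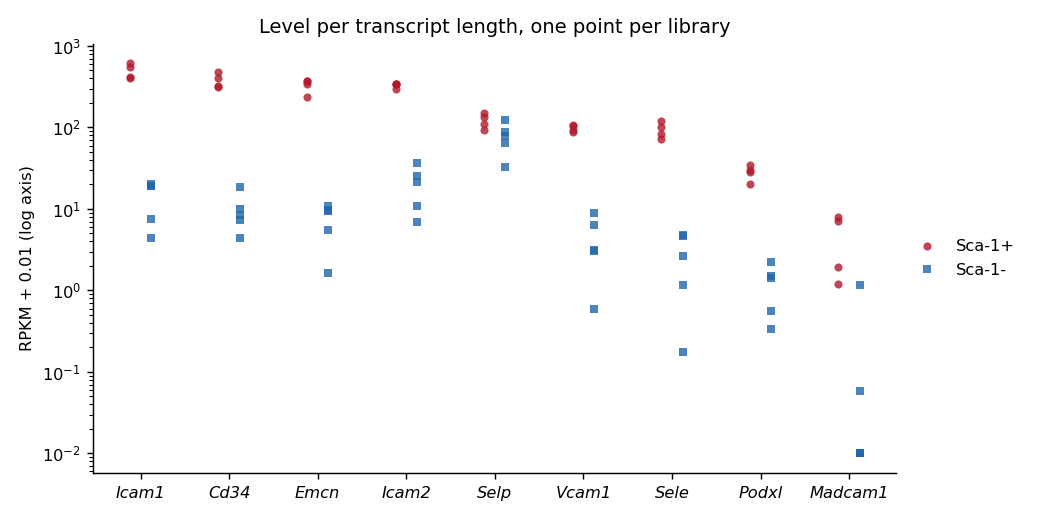
RPKM of each member over its longest coding transcript (log axis, 0.01 added so that libraries at 0 can be drawn at the bottom), one point per library, Sca-1+ in red circles and Sca-1- in blue squares, ordered by mean level in Sca-1+. Icam1, Cd34, Emcn and Icam2 form the top step in Sca-1+, and Selp is the highest member in 4 of 5 Sca-1- libraries.

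Because general endothelial genes also differed, the members were set against them within each library. Scaled to the 25 general endothelial genes, 1.13% of all genes were higher and 90.1% lower in Sca-1+, with a median of -4.77 on the log2 scale over all genes. On this scale 1 member was higher, Emcn (log2 fold change 0.96, adjusted p = 0.0255), and 1 was lower, Selp (-4.49, adjusted p = 2.54e-04), a direction it shared with the 90.1%. The other 7 were not called, with Cd34 at 0.69 (adjusted p = 0.0841), Icam1 at 0.60 (0.142), Sele at 0.81 (0.146), Icam2 at -0.49 (0.187), Podxl at -0.03 (0.947), Madcam1 at -0.08 (0.954) and Vcam1 at -0.01 (0.989). Relative to the mean log2 level of the endothelial genes of the same library, Selp stood at -0.20 to 0.60 in Sca-1+ and at 2.40 to 6.02 in Sca-1- libraries. Vcam1 stood at -0.29 to 0.16 and at -1.37 to 0.69. Emcn, although called, overlapped between the fractions, at 0.84 to 1.44 in Sca-1+ and -0.45 to 0.96 in Sca-1- libraries. Cd34, although not called, did not overlap, at 1.23 to 1.74 and 0.03 to 1.08.

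**Figure D4:**
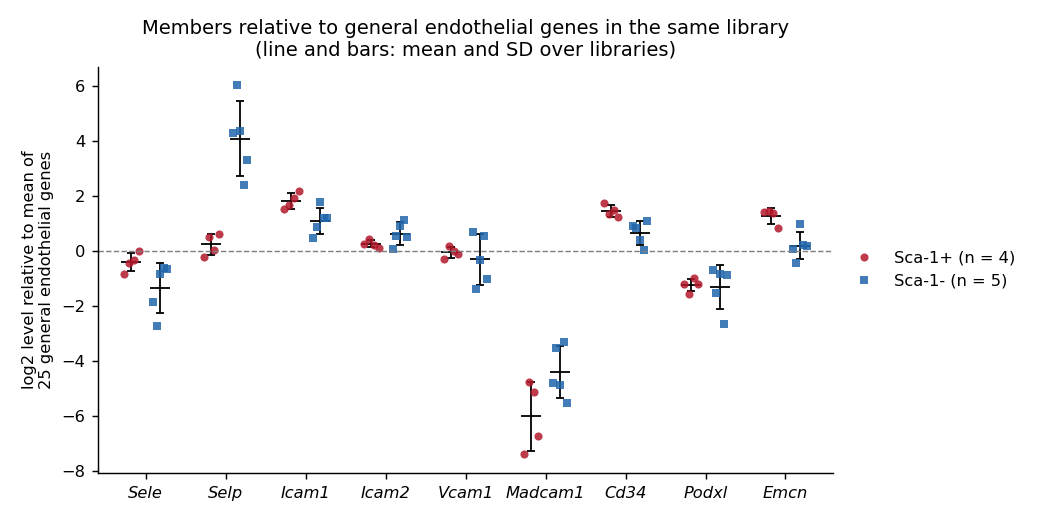
Log2 level of each member minus the mean log2 level of 25 general endothelial genes in the same library (0.5 CPM added), Sca-1+ in red circles (n = 4) and Sca-1- in blue squares (n = 5), with mean and SD in black and the dashed line at equal level. Selp alone is above the line by 2.40 or more in every Sca-1- library, and Madcam1 in the Sca-1- libraries is held up by the value added to its counts of 0.

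Among the 36 pairs of members, Icam1 and Emcn had the most alike profiles, with a root mean square difference of 0.432 between their log2 CPM centred over the 9 libraries. Selp differed by 2.05 or more from each of the other 8. For each member the 2 most alike of all tested genes by the same measure were looked up as a description. Cd34 was nearest to Gm16897 (0.262) and to Dll4, a Notch ligand of arterial ECs (0.312). Podxl was nearest to Acvrl1, a BMP receptor of ECs (0.392), and Ptprg (0.447). Emcn was nearest to Cd300lg, also called nepmucin, itself an endothelial sialomucin (0.329), and to Upp1 (0.355). Icam1 was nearest to Galnt15 (0.210) and Plk2 (0.284), Icam2 to Trp53i11 (0.195) and Map4k5 (0.199), and Vcam1 to RP24-245I16.3 (0.188) and Id4 (0.225). Sele was nearest to Grasp (0.448) and Gm26840 (0.492), and Madcam1 to 4921506M07Rik (0.525) and Sectm1a (0.702). Selp was nearest to Gm16587 (0.079) and Gm16548 (0.175).

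Some of these neighbours lie across the members on the opposite strand. Exons of Gm16587 and Gm16548 share 624 bases with those of Selp, Gm16897 shares 148 with Cd34, Gm47079 shares 511 with Icam1 and Gm43109 shares 61 with Vcam1. The use of strand in counting is not given in the sources used here, so reads of these pairs cannot be told apart and the values of both genes are uncertain to that extent. Icam2, Sele, Madcam1, Podxl and Emcn share no exon with another gene in GENCODE M21.

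The partners of the members were taken from 7 lists of 66 genes, of which 61 were tested. In all 22 were higher in Sca-1+ and 22 lower, with a median log2 fold change of -0.05. Among the 7 tested genes of the selectin ligand list, which includes L-selectin, 0 were higher and 5 lower in Sca-1+. Spn (CD43, -6.24 ± 0.94 SE, adjusted p = 4.94e-04) and Cd44 (-4.67 ± 0.60, adjusted p = 2.02e-04) were the furthest down. Among 7 integrin subunits that bind the immunoglobulin superfamily members, 4 were lower and 1 higher. Itgb2, the shared chain of the leukocyte integrins, was at -8.13 ± 1.16 (adjusted p = 3.77e-04) and Itgal, its LFA-1 partner, at -7.11 ± 0.68 (adjusted p = 4.46e-05), while Itga9 was at 2.31 ± 0.47 (adjusted p = 0.00275). Ptprc, which encodes the CD45 used to gate leukocytes out, was at 0.843 CPM in Sca-1+ and 28.9 CPM in Sca-1-, and 6 of 8 general leukocyte genes were lower in Sca-1+, with sums of 118 to 195 and 1268 to 2857 CPM. Their part in the ligand and integrin lists was not tested.

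On the endothelial side, 8 of 15 junctional and other transmigration molecules were higher and 2 lower in Sca-1+. Mcam (CD146, 5.67 ± 0.49 SE, adjusted p = 3.07e-05) and Cdh5 (VE-cadherin, 5.20 ± 0.43, adjusted p = 2.56e-05) were the furthest up, and Icam4, an erythroid ICAM (-3.06 ± 0.51, adjusted p = 8.64e-04), and Cd47 (-1.73 ± 0.36, adjusted p = 0.00312) the furthest down. Of the 3 other sialomucins tested, 0 were called in either direction. Among 14 enzymes that build selectin ligand glycans, 6 were higher and 4 lower. Chst2 (5.12 ± 0.75, adjusted p = 4.43e-04), a sulfotransferase of L-selectin ligands, and B3gnt3 (5.01 ± 0.92, adjusted p = 0.00152), which extends core glycans, were highest, and Fut7 (-6.83 ± 1.88, adjusted p = 0.0134), the fucosyltransferase of leukocyte ligands, and Gcnt1 (-6.46 ± 0.76, adjusted p = 1.32e-04), which branches core glycans, lowest.

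Inside the cell, ERM proteins, filamins and other adaptors tie ICAM, VCAM-1 and CD34 family tails to actin. Of 14 such partners 6 were higher and 6 lower in Sca-1+. Slc9a3r2 (NHERF2, a podocalyxin partner) was at 4.88 ± 0.39 (SE, adjusted p = 2.31e-05) and Arhgef26 (SGEF, an ICAM-1 partner) at 4.67 ± 1.16 (adjusted p = 0.00795). Flna was at -2.31 ± 0.42 (adjusted p = 0.00152) and Rhog at -2.11 ± 0.40 (adjusted p = 0.00187). Of the 2 sheddases that cut adhesion molecules from the surface, Adam17 was at 0.78 ± 0.23 (adjusted p = 0.0182) and Adam10 at -1.04 ± 0.35 (adjusted p = 0.0322).

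**Figure D5:**
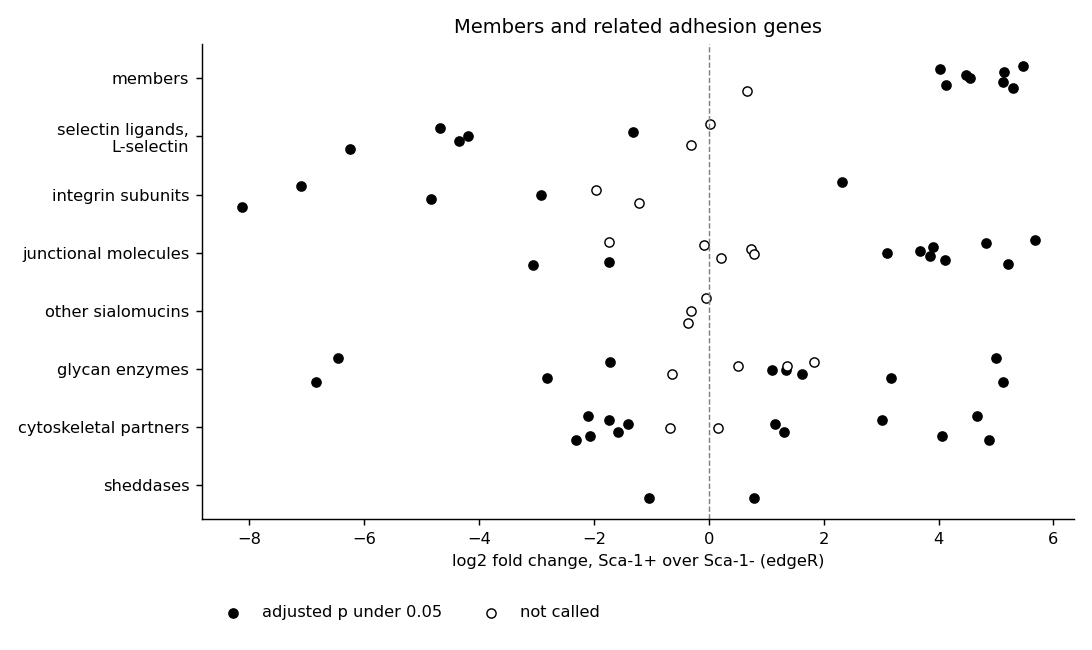
Log2 fold change, Sca-1+ over Sca-1-, of the 9 members and of each tested gene of the 7 related lists, one point per gene, filled where the edgeR adjusted p is under 0.05. The filled members lie between 4.03 and 5.48, while the selectin ligand and integrin lists lie mostly on the negative side and the glycan and cytoskeletal lists on both.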

How the data were processed

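RNA-seq was measured in 9 libraries of sorted BM ECs, made from low input RNA with the SMART-Seq v4 kit, which adds no molecular identifiers, so that floors cover counting error only. The authors deposited whole-number read counts per gene, not normalized. STAR, featureCounts and mm10 are named in the submitters' processing notes, and their settings are not given in the sources used here. Groups came from the sample labels. The members and gene lists were chosen with earlier results of these data known. Counts were filtered by filterByExpr (minimum count 10, minimum total 15), scaled by TMM and tested with edgeR 4.0.16 (quasi-likelihood F-test, two-sided, R 4.3.3), Sca-1+ against Sca-1-, without a block, with Benjamini-Hochberg adjustment over 15937 genes and a threshold of 0.05. The step was tested on simulated data. Standard errors came from the F statistic and a prior count of 2 entered log2 CPM. DESeq2 1.42.0, limma 3.58.1 voom, other scalings, filters, blocks and left-out libraries were alternatives. Ratios were compared by exact permutation in scipy 1.17.1. Lengths and exons came from GENCODE M21. Genes named were the members, the 2 furthest called genes in each direction of each related list with an average log2 CPM of at least 1, the 2 nearest profiles of each member, and sort markers. Lyve1, Lepr, Adgre1, Procr, Mecom, Slamf1, Meis1, the ratios and the fits by title tag were chosen after their values were seen.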

Additional observations from a re-analysis of the deposited data

Results flagged for a closer look

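Of 42 groups of values examined (the log2 CPM of each member and the mean log2 CPM of each marker list, in each fraction), 4 held an outlying library, and about 1 group in 20 does so by chance. Icam2 in Sca-1+ library 19 was at 8.55 log2 CPM and the other Sca-1+ libraries at 8.75 to 8.77. Madcam1 in Sca-1- library 16 was at 0.80 log2 CPM and the other Sca-1- libraries, all at 0 or 1 count, at -3.63 to -2.73. The stem and progenitor genes of Sca-1+ library 13 had a mean of 2.36 log2 CPM, under 2.90 to 2.97 in the others. The B and plasma cell genes of Sca-1+ library 19 had a mean of 2.04 log2 CPM, over 0.27 to 0.31 in the others.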

How the results depend on the processing

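Under the 23 alternatives other than endothelial scaling, 7 to 9 members were higher in Sca-1+ and 0 lower. Among all genes tested, those called higher ran from 1449 of 16288 (only the 4 libraries tagged wt) to 4397 of 15937 (limma voom). With any 1 library left out, 7 to 8 members were higher. Related genes then numbered 19 to 23 higher and 18 to 22 lower, and all genes 3098 to 3708 higher and 2859 to 3577 lower. The fit without libraries 19, 10 and 22 and that of the other 6 libraries without a block are the same fit, counted under both names. In the 4 libraries tagged wt alone, a fit chosen after seeing the data, 11 related genes were higher and 5 lower, with fewer samples. Over all 16288 genes of that fit 1449 were higher and 1219 lower. Vcam1, Icam1, Icam2, Sele, Cd34, Podxl and Emcn were called higher under all 23, with log2 fold changes from 3.67 (Vcam1) to 5.72 (Emcn). Selp was called under 1 of them, library size only (1.16), and Madcam1 under 13. Scaled to general endothelial genes, 1 member was higher and 1 lower, 1 related gene was higher and 48 lower, and log2 fold changes turned to -0.007 for Vcam1, -0.487 for Icam2, -4.492 for Selp, -0.081 for Madcam1 and -0.033 for Podxl. That scaling lowers every gene by the rise of the endothelial genes, as its construction sets. With 1 library left out, the log2 ratio of Vcam1 to Icam1, Sca-1+ minus Sca-1-, ranged from -0.651 to 0.019 and changed sign without library 8, and the Selp to Sele difference ranged from -5.71 to -4.042; the other 5 ratios kept their direction. Apart from the number in the titles of libraries 15 and 16, the labels give no replicate numbers shared by both fractions. Deviations from the fraction means correlated at 0.147 (libraries 7 and 8), 0.148 (13 and 14) and 0.042 (15 and 16). Pairs of libraries without consecutive end numbers ran from -0.191 to 0.065. Libraries 15 and 16 share a number in their titles, which the labels do not explain, but had the lowest value of the consecutive pairs. These correlations cannot decide pairing. Since the labels state no pairs, the main fit did not pair consecutive end numbers. With them as a replicate block in those 6 libraries, 7 members were higher, Madcam1 had an adjusted p of 0.066, and 2265 genes were higher and 2075 lower, against 2768 and 2592 without the block. A block for libraries 15 and 16 alone gave 8 members higher, with 3649 of all 15937 genes higher. Depth limits Madcam1, which had 0 or 1 count in 4 Sca-1- libraries.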
